A study of Mus musculus with 8 samples.

Results

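Myelin protein genes were followed in the brains of male C57Bl/6JRj mice at 6 months (6m) and 24 months (24m) of age. The 9 genes, chosen by name, were Mbp, Mog, Mag, Mobp, Cnp, Cldn11, Mal, Ermn and Opalin, and were found by Ensembl identifier among the 22430 genes of the count table. Each library came from poly(A) RNA of a homogenized brain hemisphere of a single untreated animal, with 4 animals at each age and age as the only labelled difference between the groups. All 9 genes had over 5 counts in 4 or more libraries, the filter that 16730 genes passed in total. Library totals ran from 63460940 to 103462414 counts, the highest being 24m replicate 1. Every gene of the group was deeply counted, from 630 counts for Ermn in 6m replicate 4 to 233641 counts for Mbp in 24m replicate 1, so counting error was small beside the spread between animals. In RNA from a whole hemisphere, a change in the number of oligodendrocytes and a change in RNA per oligodendrocyte cannot be told apart.

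Myelin is the membrane that oligodendrocytes wrap around axons in the central nervous system, where it speeds the conduction of action potentials. Its layers are fused into compact myelin, held at their cytoplasmic faces by Mbp and stabilised by small proteins such as Mobp, while channels of noncompact myelin between them hold the enzyme Cnp. Mag lies on the inner membrane facing the axon, Mog on the outermost layer, and Cldn11 forms the tight junctions between layers. Mal is a proteolipid of membrane rafts, Ermn a cytoskeletal protein of late oligodendrocytes, and Opalin a transmembrane glycoprotein of the mature cell.

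On GRCm39, the build of the count table, the genes lay on 8 chromosomes, with only Mal (chr2:127475142-127498615, minus strand) and Ermn (chr2:57934641-57942882, minus strand) sharing one. Mbp (chr18:82493207-82603763, plus strand) was annotated with 69 transcripts, of which 59 were coding, so its count pooled the classic myelin forms with the longer Golli forms that begin further upstream. The other positions were chr17:37321521-37334350 (minus) for Mog, chr7:30598464-30614474 (minus) for Mag, chr9:119973770-120011273 (plus) for Mobp, chr11:100465730-100482936 (plus) for Cnp, chr3:31203900-31218495 (plus) for Cldn11 and chr19:41045254-41065553 (minus) for Opalin.

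Exons of 4 of these genes overlapped a protein-coding gene on the other strand: 1474 bases of Mog with Zfp57, 670 of Cnp with Dnajc7, 520 of Opalin with Dntt and 237 of Ermn with Galnt5. Dnajc7 stood at 121 to 150.6 CPM (counts per 1000000 counts) and Zfp57 at 1.73 to 4.58 CPM, while Dntt and Galnt5 did not exceed 0.183 CPM in any library. The kit kept strand, but the strand setting used for counting is not given in the sources used here, so the part of the Cnp and Mog counts in these overlaps is uncertain.

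Start regions are shown for 4 of the genes because the transcription factors Sox10 and Myrf, which drive myelin genes, both rose with age in these brains, while 1 of the 9 myelin protein genes was called. RefSeq promoter windows (250 bases before to 50 after each start) were at hand for 8 of the 9 genes, 10 windows in all, because Mag had 3 that lie close together. They were searched on both strands for ACAAAG, letters that Sox factors bind and that read CTTTGT on the other strand, and for CTGGCAC as well as CTGGTAC, letters of the Myrf motif. Only bases upstream of every annotated exon are printed, 5′ to 3′ on the strand of the gene, with matches to these motifs in capitals. The runs are chr2:127498616-127498865 for Mal, the gene called higher at 24m, and chr19:41065554-41065802 for Opalin, which had the lowest fold change of the 9. Those of Cnp and Mobp were chosen for their motifs. They are chr11:100465515-100465729 for Cnp, the one gene searched with both kinds upstream of every annotated exon, and chr9:119978558-119978683 for Mobp, which held the most copies of one. The windows of Mag and Opalin also held both kinds, but not both upstream of every annotated exon.
Mal: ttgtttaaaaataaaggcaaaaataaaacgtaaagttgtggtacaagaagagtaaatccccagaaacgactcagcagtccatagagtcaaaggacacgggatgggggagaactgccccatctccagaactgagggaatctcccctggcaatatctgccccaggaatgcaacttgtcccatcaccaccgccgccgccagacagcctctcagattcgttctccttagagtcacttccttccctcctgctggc
Opalin: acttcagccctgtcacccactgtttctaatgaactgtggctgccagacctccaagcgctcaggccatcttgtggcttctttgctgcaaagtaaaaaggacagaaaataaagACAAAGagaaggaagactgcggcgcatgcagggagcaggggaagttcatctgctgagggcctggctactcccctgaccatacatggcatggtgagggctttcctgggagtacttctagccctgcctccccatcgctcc
Cnp: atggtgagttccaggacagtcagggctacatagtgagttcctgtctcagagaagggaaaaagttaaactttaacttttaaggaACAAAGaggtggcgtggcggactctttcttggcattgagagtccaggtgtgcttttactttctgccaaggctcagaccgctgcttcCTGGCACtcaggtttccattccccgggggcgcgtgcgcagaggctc
Mobp: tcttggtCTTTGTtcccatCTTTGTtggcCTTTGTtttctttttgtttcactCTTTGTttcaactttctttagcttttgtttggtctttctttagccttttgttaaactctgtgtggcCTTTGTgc

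The Mal window held none of the motifs, nor did those of Cldn11 and Ermn. ACAAAG was found in 5 of the 10 windows, belonging to Mag, Mobp, Cnp and Opalin, and in 18.7% of the 32851 windows of all genes. CTGGCAC was found in 4 of the 10 windows, of Mag, Cnp and Opalin, against 5.01% of all windows, and CTGGTAC in the Mog window alone, against 2.24%. By gene, ACAAAG was in 4 of 8 members and 21% of all genes, CTGGCAC in 3 of 8 and 5.73%, and CTGGTAC in 1 of 8 and 2.6%, counts in which the overlapping Mag windows, which share their sites, enter once. The Mobp window held 6 copies of CTTTGT upstream of its start, 5 of them in the printed run. Opalin had a second ACAAAG and its CTGGCAC letters within the 50 bases after the start, which are not printed. These matches describe letters in short windows and say nothing of binding.

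Between 6m and 24m, Mal was the one myelin protein gene that rose, and the other 8 did not pass the test. Calls were made at a Benjamini-Hochberg adjusted p of 0.05 or less and a log2 fold change of at least 0.58 in size, from edgeR's quasi-likelihood test over all 16730 genes. Of the 9 genes, 1 was called higher and 0 lower, in a comparison where 25.3% of all genes were called higher and 18.3% lower. No member was lower at an unadjusted p of 0.05 either, and DESeq2 and limma-voom also called 0 lower. By adjusted p alone the count was still 1 of 9, against 62.6% of all genes tested, but this count moved with the settings. It was 4 with library totals (Mbp, Mog, Cnp and Mal), 4 without 24m replicate 1 (Mag, Cldn11, Mal and Opalin) and 5 with a length trend removed (Mog, Mobp, Cnp, Cldn11 and Mal). The libraries of the 2 ages did not overlap for 1 gene of the 9, again Mal, whereas 28.4% of all genes had every 24m library above every 6m library and 26.8% had the reverse. The median log2 fold change of the 9 genes was 0.001, beside -0.003 over all genes.

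Mbp, the main structural protein of compact myelin, stood at 2153, 1759, 1956 and 2372 CPM in 6m replicates 1 to 4 and at 2255, 2040, 2086 and 1862 CPM in 24m replicates 1 to 4. Its highest and its lowest library were both from the younger animals, and the ages overlapped throughout. The means were 2060 ± 263 CPM at 6m and 2061 ± 162 CPM at 24m (SD, n = 4 each). On the log2 scale the difference was 0.001 (SE 0.115, 95% interval -0.26 to 0.26, adjusted p = 0.997), so changes of up to about 1.19-fold in either direction remain within the interval.

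Mobp, the other small basic protein of compact myelin, measured 211, 217, 223 and 261 CPM at 6m and 204, 216, 229 and 235 CPM at 24m. Here 6m replicate 4 was above all other libraries, and the remaining 7 lay within 204 to 235 CPM. The log2 fold change was -0.04 (SE 0.09, interval -0.25 to 0.16, adjusted p = 0.684).

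Mal, the raft proteolipid, was at 29.2, 32.0, 31.7 and 29.0 CPM at 6m and at 33.2, 47.1, 50.7 and 56.4 CPM at 24m. The younger animals lay within 3 CPM of each other, and every aged animal was above them, although 24m replicate 1 was only just so. The mean rose from 30.5 ± 1.61 to 46.8 ± 9.84 CPM (SD, n = 4 each), a log2 fold change of 0.62 (SE 0.147, interval 0.29 to 0.95, 1.54-fold, adjusted p = 0.00483). The estimate was close to the fold threshold, and the call was lost without 24m replicate 4 (0.52, adjusted p = 0.0105) and with a GC trend removed (0.45, adjusted p = 0.0078), in both cases because the fold change fell below 0.58. Without 24m replicate 1 it was 0.77.

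**Figure D1:**
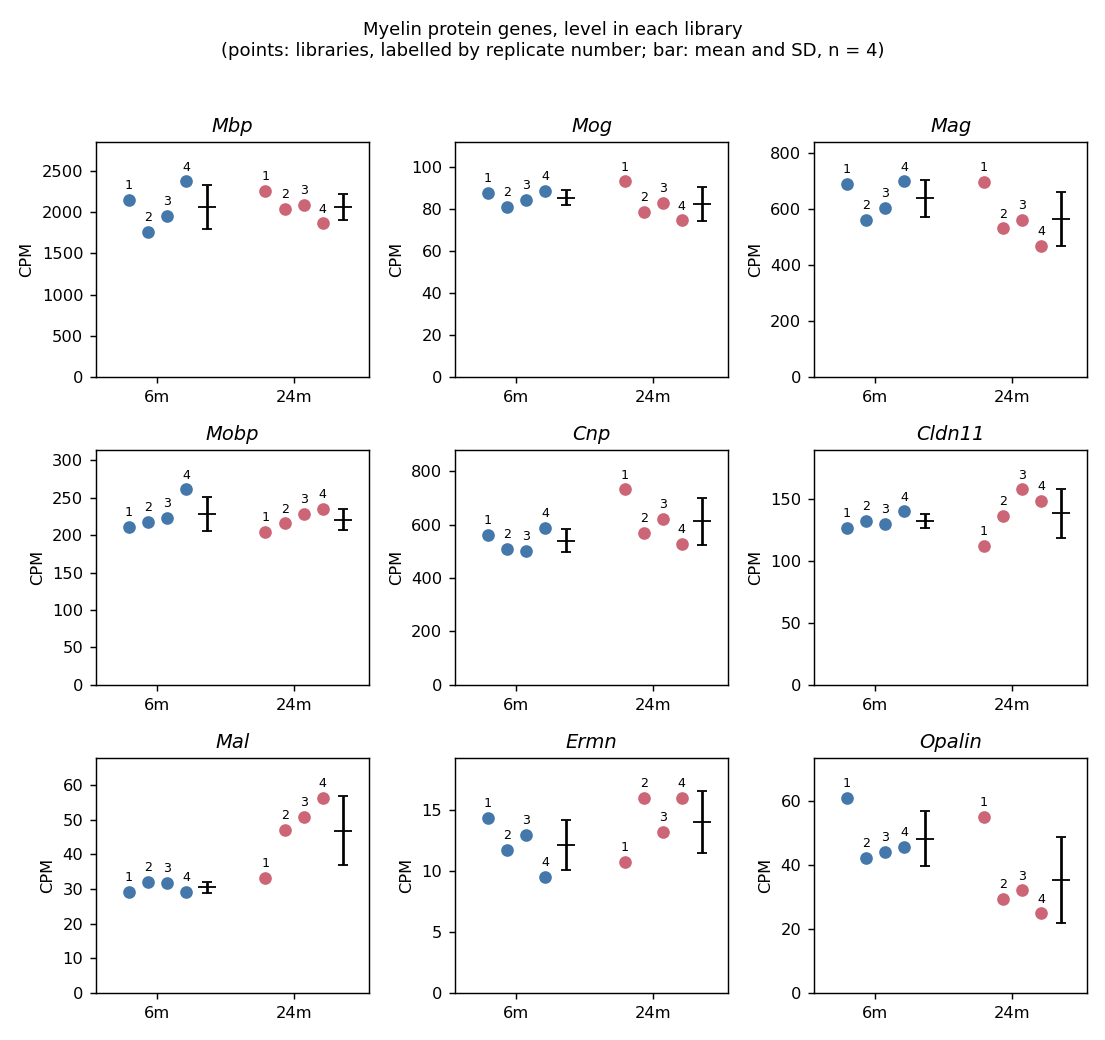
Level of each of the 9 myelin protein genes in CPM (linear axes from 0) in the 4 libraries at 6m and the 4 at 24m, with replicate numbers beside the points and the mean and SD as black bars. Mal is the only panel in which every 24m library lies above every 6m library, from 33.2 CPM upwards against at most 32.0 CPM.

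Among the surface proteins, Mog on the outer layer was at 87.7, 80.9, 84.2 and 88.5 CPM at 6m and at 93.0, 78.4, 82.8 and 74.5 CPM at 24m. The aged animals enclosed the younger ones on both sides. Its log2 fold change of -0.06 had the narrowest interval of the 9 genes (SE 0.086, -0.25 to 0.14, adjusted p = 0.598).

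Mag, the adhesion molecule facing the axon, was at 690, 562, 605 and 698 CPM at 6m and at 697, 531, 561 and 469 CPM at 24m. Of the aged animals, 3 lay below all the younger ones and 24m replicate 1 lay level with the highest of them. The log2 fold change was -0.18 (SE 0.131, interval -0.47 to 0.12, adjusted p = 0.256), and -0.28 without 24m replicate 1 (adjusted p = 0.022), still short of the fold threshold.

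Opalin showed the same arrangement on a larger scale, with 61.2, 42.3, 44.1 and 45.8 CPM at 6m and 55.1, 29.5, 32.1 and 24.9 CPM at 24m. Again 3 aged animals were below every younger animal, and 24m replicate 1 was above 3 of the 4 younger ones. Across all libraries the log2 fold change was -0.45 (SE 0.234, interval -0.97 to 0.07, adjusted p = 0.117), which missed both thresholds. Without 24m replicate 1, Opalin was called lower, at -0.73 (adjusted p = 0.000759). With library totals and without that library it was -0.49 (adjusted p = 0.00685) and not called, and with all libraries and a replicate block it was -0.50 (adjusted p = 0.0128). The call of Opalin thus depended on that library and on the scaling.

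Cnp, the enzyme of noncompact myelin, was at 563, 509, 501 and 589 CPM at 6m and at 732, 570, 623 and 528 CPM at 24m. The value of 732 CPM again belonged to 24m replicate 1, and 2 aged animals exceeded all the younger ones. The log2 fold change was 0.18 (SE 0.114, interval -0.07 to 0.44, adjusted p = 0.19). It was 0.54 in DESeq2 after quantile normalization (adjusted p = 1.26e-18) and 0.40 with library totals (adjusted p = 0.00212), both under the fold threshold.

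Cldn11, the tight junction protein, was at 127, 133, 130 and 140 CPM at 6m and at 112, 137, 158 and 148 CPM at 24m. The younger animals were close together, and the aged ones ranged from below to above them. Its log2 fold change was 0.07 (SE 0.107, interval -0.17 to 0.31, adjusted p = 0.597), and 0.18 without 24m replicate 1 (adjusted p = 0.0355).

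Ermn, the least abundant of the 9, was at 14.3, 11.7, 13.0 and 9.53 CPM at 6m and at 10.7, 16.0, 13.2 and 16.0 CPM at 24m. A pair of aged animals was above every younger one and another was below 3 of them. The log2 fold change was 0.20 (SE 0.165, interval -0.17 to 0.57, adjusted p = 0.301).

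Scaling decided how the near-zero differences were signed. As a plain percentage of all counts, the 9 genes held 0.361, 0.320, 0.341 and 0.3755% at 6m and 0.420, 0.4025, 0.4165 and 0.387% at 24m, so every aged library was above every younger one. The means were 0.349 ± 0.0240% and 0.406 ± 0.0151% (SD, n = 4 each). Scaled with TMM factors, which centre the bulk of genes, the summed levels overlapped, at 3347 to 4234 CPM at 6m and 3415 to 4192 CPM at 24m. With library totals in place of TMM the median of all genes itself moved to 0.214, and that of the 9 genes to 0.22. This choice shifts all genes nearly alike, so it could not change the difference between these medians. Quantile normalization in DESeq2, which is no such shift, put them at -0.10 for all genes and 0.16 for the 9 genes. Mitochondrially encoded genes took 5.26 to 6.52% of counts at 6m and 3.18 to 3.69% at 24m, and without them in the denominator the percentages were 0.372 ± 0.0244 and 0.420 ± 0.0155. Their part in the result was not tested beyond that step.

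**Figure D2:**
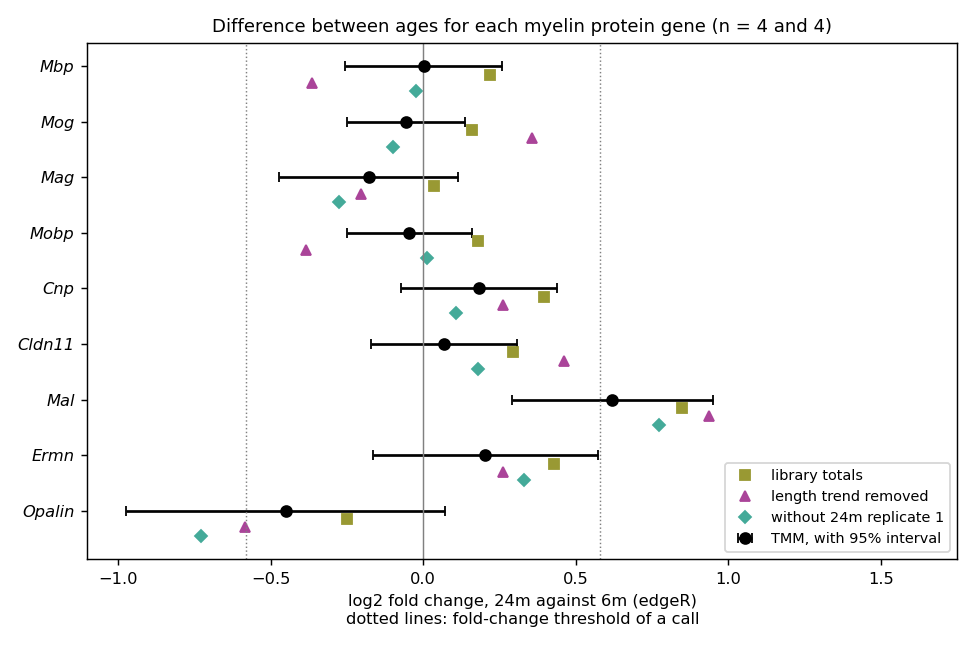
Log2 fold change of each myelin protein gene, 24m against 6m, by edgeR with TMM scaling and its 95% interval (black), and the estimate under 3 other settings (coloured). The intervals of 8 genes include 0 and that of Mal runs from 0.29 to 0.95, while library totals move every estimate to the right and the removal of a length trend moves Mbp and Mobp to the left and Mog and Cldn11 to the right.

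Gene length mattered as well. A smoothed trend of log2 CPM over the length of the union of all exons was removed in each library. Mbp and Mobp have 9745 and 8974 bases in that union but 2155 and 1566 in the canonical transcript. With the trend removed, Mbp and Mobp went to -0.365 and -0.385 and Mog and Cldn11 to 0.36 and 0.46. Mal stayed called at 0.94. A trend over canonical length was not tried. No other member was called under that setting. Mog (adjusted p = 0.00124), Mobp (0.00626), Cldn11 (0.0193) and Cnp (0.0373) passed 0.05 but not the fold threshold, Mobp being the one with a negative value. Opalin, at -0.585, had an adjusted p of 0.0559. Among the 9 genes, the log2 fold change rose with the length of the canonical transcript with a Spearman coefficient of 0.567, and among 16677 genes tested with an annotated length it was 0.564. With the length of the union of exons the coefficients were -0.317 over the 9 genes and 0.42 over all genes, so the sign for the 9 genes depended on the length used. The 9 points share the same 8 libraries and are given as a description.

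Within an age the 9 genes did not vary as a block. Each library was compared with the mean log2 CPM of its own age, gene by gene. In 24m replicate 1, Mbp (0.13), Mog (0.18), Mag (0.32), Cnp (0.27) and Opalin (0.705) were above the mean of the aged animals. In the same library Mobp (-0.11), Cldn11 (-0.30), Mal (-0.47) and Ermn (-0.36) were below it. In 24m replicate 4 all 9 signs were the opposite, from -0.44 for Opalin to 0.29 for Mal. The younger animals spread less for most genes: 6m replicate 4 was the highest of its age for Mbp (0.21) and Mobp (0.20) and the lowest for Ermn (-0.33), and 6m replicate 2 was the lowest for Mbp (-0.22) and Mag (-0.18). Averaged over the 9 genes, where opposite signs cancel, these deviations lay between -0.08 and 0.07 in every library. The median over all genes tested lay between -0.005 and 0.018, but TMM scaling holds it near 0. The contrast of 24m replicates 1 and 4 was not particular to the 9 genes. Among genes of other lists, picked after their values were seen, Map2 (46.9 and 224 CPM) and Kif1b (86.9 and 334.5 CPM) were lower in replicate 1. S100b (163 and 100.5 CPM) and Ppp1r14a (97.1 and 45.3 CPM) were higher there, and Sox10 (87.2 and 76.0 CPM) differed less.

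**Figure D3:**
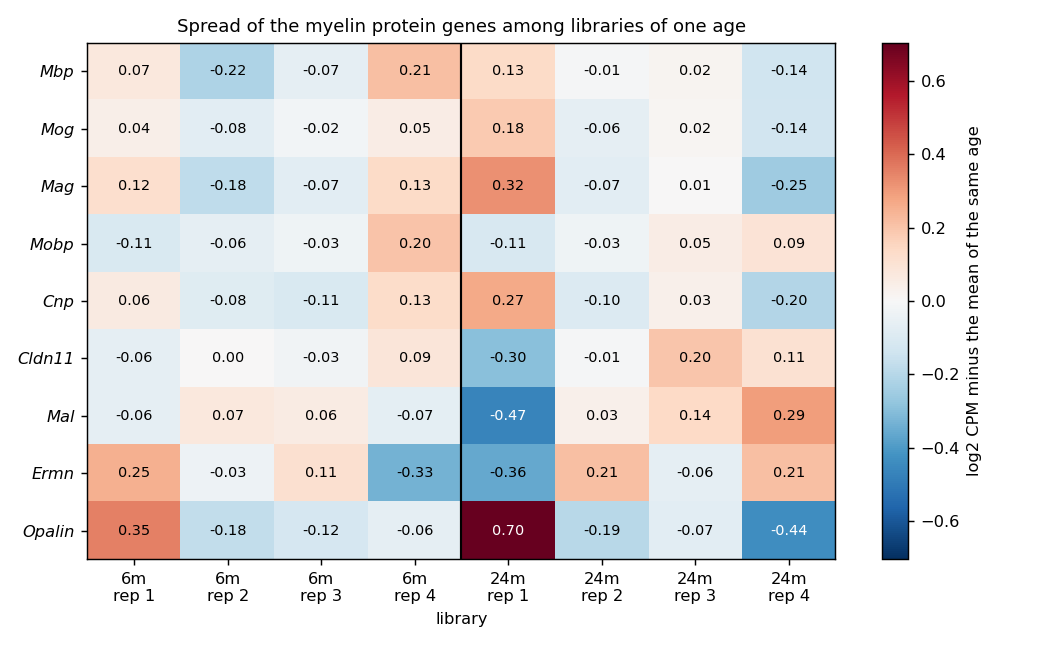
Log2 CPM of each myelin protein gene in each library minus the mean of the same age, with red above and blue below that mean and the value printed in each cell. The columns of 24m replicate 1 and 24m replicate 4 carry opposite signs for all 9 genes, most strongly for Opalin (0.705 and -0.44) and Mal (-0.47 and 0.29).

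Ratios to Mbp within a library are free of library scaling, although a ratio of counts between genes of different length has no absolute meaning. The Mog count was 3.73 to 4.60% of the Mbp count at 6m and 3.84 to 4.12% at 24m. For Mag the range was 29.4 to 32.0% at 6m and 25.2 to 30.9% at 24m, and for Cnp 24.8 to 28.9% and 27.9 to 32.5%. Mal moved from 1.22 to 1.82% at 6m to 1.47 to 3.03% at 24m, where 24m replicate 1 had the 1.47% and the other aged animals 2.31% or more. Opalin was at 1.93 to 2.84% at 6m, at 2.44% in 24m replicate 1 and at 1.34 to 1.54% in the other 3 aged animals. For all 8 ratios the ages overlapped. Mbp itself supplied 52.5 to 56.0% of the counts of the 9 genes in every library.

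Per kilobase of exon, the order of levels was the same at both ages: Mbp, Cnp, Mag, Cldn11, Mog, Mobp, Mal, Opalin and Ermn. Mbp averaged 211 ± 27.0 CPM per kilobase at 6m and Ermn 2.84 ± 0.475 (SD, n = 4). Of the neighbours in this order, Cnp and Mag overlapped at both ages, at 124 to 146 against 113 to 141 CPM per kilobase at 6m and 130 to 181 against 94.6 to 141 at 24m. All other neighbours were separated in their libraries at both ages, including Mal over Opalin, at 10.3 to 11.3 against 6.71 to 9.71 at 6m and 11.8 to 19.96 against 3.95 to 8.73 at 24m. The order depended on the length used. With the canonical transcript in place of the union of all exons, Mobp went from 25.4 to 146 CPM per kilobase at 6m, and at that age 2 of the 9 genes kept their rank, Mbp and Ermn. At 24m these were 4, with Mal and Opalin. On that length the order also differed between ages, with Mal below Opalin at 6m (10.96 against 18.6 CPM per kilobase) and above it at 24m in the mean (16.8 against 13.6), although in 24m replicate 1 Mal was still below Opalin (11.9 against 21.2).

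Other genes of myelin and of mature oligodendrocytes were read in the same fit. Of 29 tested, calls were 9 higher and 3 lower, to be read against the 25.3% and 18.3% of all genes called. Their log2 fold changes ran from -1.05 to 2.72 around a median of -0.09. Tppp, a tubulin-binding protein of oligodendrocytes, rose 6.59-fold from a mean of 6.76 CPM (log2 fold change 2.72, SE 0.316, adjusted p = 0.000128). Cntn2, an adhesion molecule beside the node of Ranvier, rose 3.04-fold (1.61, SE 0.121, adjusted p = 2.42e-05). Klk6, a secreted protease of oligodendrocytes, fell by 0.61 (SE 0.193, adjusted p = 0.0192), and Ppp1r14a, an inhibitor of myosin phosphatase, fell by 1.05 (SE 0.224, adjusted p = 0.00276). The call of Klk6 was lost with library totals (-0.40, adjusted p = 0.0582), with a length trend removed (-0.05) and on leaving out 6m replicate 1 (-0.55), 6m replicate 4 (-0.51) or 24m replicate 4 (-0.49).

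Of 9 enzymes of myelin lipid synthesis, calls were 2 higher and 1 lower, and the median was 0.20. Ugt8a, which makes galactosylceramide, rose 3.03-fold (adjusted p = 0.00104) and Fa2h, which hydroxylates its fatty acid, rose 2.04-fold (adjusted p = 0.00024). Gal3st1, which turns galactosylceramide into sulfatide, fell by 0.77 on the log2 scale (adjusted p = 0.0012), although by 0.55 with library totals, under the fold threshold. Of 8 genes for proteins that bind or transport myelin mRNAs, calls were 2 higher and 0 lower and the median was -0.001. These were Qk, an RNA-binding protein that keeps Mbp mRNA stable (2.1-fold, adjusted p = 0.003), and Kif1b, a motor for Mbp mRNA transport (7.21-fold, adjusted p = 0.000146). Removing a length trend left Qk at 0.46 and no longer called.

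Among 12 transcription factors of the oligodendrocyte lineage, calls were 6 higher and 1 lower, and the median was 0.58 on the log2 scale. Myrf, which switches on myelin genes in maturing oligodendrocytes, was at 24.4 to 30.4 CPM at 6m and 73.2 to 91.6 CPM at 24m (1.63, SE 0.105, adjusted p = 1.66e-05). Sox10, named here after its values were seen, rose 1.76-fold (adjusted p = 0.000302), Sox8 1.54-fold (adjusted p = 0.000667) and Zfp488 2.51-fold from a mean of 0.51 CPM (adjusted p = 0.00191). Nkx6-2, a homeobox factor of mature oligodendrocytes, fell by 0.60 (adjusted p = 0.00948), a call lost with library totals (-0.39), with a length (-0.105) or GC (-0.18) trend removed, and on leaving out 6m replicate 1 or 4 (-0.53 and -0.54) or 24m replicate 2 or 4 (-0.54 and -0.515). With DESeq2 on quantile-normalized counts Nkx6-2 (-0.576) and Sox8 (0.567) fell just short of the fold threshold, and Sox8 did so without 24m replicate 3 (0.57). Of 12 genes of precursors and early stages, calls were 5 higher and 1 lower, and the median was 0.44. The precursor receptor Pdgfra rose 4.15-fold (adjusted p = 0.000152), Gpr17 of committed precursors 3.60-fold (adjusted p = 0.000206) and the proteoglycan Vcan 2.46-fold (adjusted p = 0.00148), and Bmp4, a signalling protein that holds back oligodendrocyte maturation, fell by 1.08 (adjusted p = 0.00177). With library totals in place of TMM, all these log2 fold changes shift upwards by about the 0.214 given above.

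**Figure D4:**
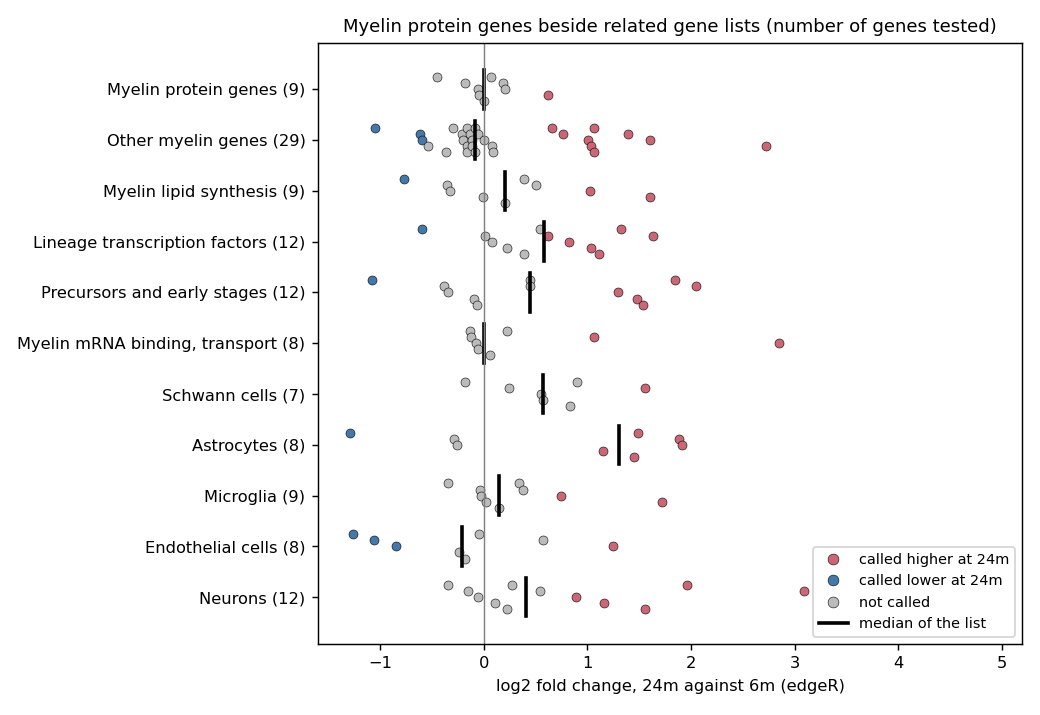
Log2 fold change of each gene of the myelin protein group and of 10 related lists, 24m against 6m, coloured by call, with the list median as a black bar and the number of genes tested in brackets. The myelin protein genes lie between -0.45 and 0.62 around a median of 0.001, while the lineage transcription factors have a median of 0.58 and single genes of other lists reach 2.72 (Tppp) and 3.09 (Map2).

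Markers of other cells were read in the same libraries. Schwann cells, which make myelin in peripheral nerves and also use Mbp and Mag, were read by 7 genes tested, of which 1 was called higher (Gldn, 2.95-fold, adjusted p = 0.00168) and 0 lower, and their summed level was 36.7 to 40.3 CPM at 6m and 53.0 to 58.5 CPM at 24m. Of 8 astrocyte markers, 5 were called higher, among them Aqp4 (3.78-fold), Slc1a3 (3.70-fold) and Slc1a2 (2.23-fold), and 1 lower (S100b, -1.29), with summed levels of 2892 to 3826 CPM at 6m and 2847 to 3844 CPM at 24m. Of 9 microglia markers, 2 were called higher (Cx3cr1, 3.30-fold, and P2ry12, 1.68-fold) and 0 lower, at 592 to 655 CPM and 560 to 834 CPM, and the call of P2ry12 was lost on leaving out any library except 6m replicate 2, 6m replicate 3 and 24m replicate 1 (0.54 to 0.79), with a GC trend removed (0.48) and in DESeq2 after quantile normalization (0.39, adjusted p = 0.137). Of 8 endothelial markers, 1 was called higher (Flt1, 2.37-fold) and 3 lower (Ly6c1, -1.26, Cldn5, -1.06, and Emcn, -0.85), at 77.1 to 113 CPM and 46.0 to 70.3 CPM, with Cldn5 at -0.415 and not called once a length trend was removed. Of 12 neuron markers, 5 were called higher, including Map2 (8.5-fold), Gad2 (3.89-fold), Gad1 (2.24-fold) and Syn1 (1.85-fold), and 0 lower, at 3923 to 4572 CPM and 4977 to 6027 CPM. The part of these cells in the values of the myelin protein genes was not tested.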

How the data were processed

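The deposited values are raw counts per gene. The authors trimmed reads with Trim Galore 0.4.11, aligned them to GRCm39 with HISAT2 2.1.0 (per the labels) and counted reads per gene with featureCounts from subread, from a directional poly(A) library kit. Identifiers were matched to GENCODE vM39. The 9 members and all lists were chosen with earlier results of these data known. Of 125 listed genes, 124 were in the table, 1 by an older symbol, and 123 were tested.

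Genes with over 5 counts in 4 or more libraries were fitted on age with edgeR 4.0.16 (R 4.3.3, TMM, glmQLFit, glmQLFTest), with Benjamini-Hochberg adjustment over all genes tested. The step was tested on simulated counts. CPM are TMM-scaled over the tested genes. Standard errors and 95% intervals come from the F statistic. From each list the called genes were named if 4 or fewer, otherwise the 2 largest and 2 smallest log2 fold changes among the called genes. Other genes are marked where named. Alternatives used limma 3.58.1 and DESeq2 1.42.0. One used quantile-normalized counts, a step the authors also took, without their row-wise median step. Promoter windows are RefSeq sequences of the table build GRCm38.p6, placed on GRCm39 by an exact and unique match. Mbp had no window in that table. A few genes of the lists are not reported here by name. Labels name the tissue whole brain and the protocol a hemisphere.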

Additional observations from a re-analysis of the deposited data

Results flagged for a closer look

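Among 42 groups of 4 values compared (each gene of the myelin protein group, each list sum and the share of counts, at each age), 1 had a library far from the others. The summed level of the Schwann cell markers in 6m replicate 4 was 40.3 CPM, while the other 3 young libraries all rounded to 36.7 CPM. The gap was 0.976 of the range of the group, above Dixon's critical value of 0.829. Chance alone flags about 1 in 20 such groups. No myelin protein gene met the criterion at either age.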

How the results depend on the processing

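Each myelin protein gene was refitted under 20 alternatives, and Mal stayed positive in all of them (0.45 to 1.11, adjusted p of 0.0177 or less), as Cnp did (0.11 to 0.54), while Opalin stayed negative (-0.90 to -0.25). Cldn11 also stayed positive (0.001 to 0.61). Combinations of leaving out 24m replicate 1 with library totals or with the length trend removed were added after seeing the data. The number of myelin protein genes called higher was 0 with the GC trend removed, 2 without 24m replicate 1 and with the length trend removed (Mal and Cldn11), and 0 to 1 when each library was left out in turn. The number called lower was 1 without 24m replicate 1 and with the length trend removed, and 0 to 1 in the leave-one-out fits, where Opalin is the 1 (without 24m replicate 1). Mal was the one lost without 24m replicate 4. The cause was not tested. By adjusted p alone, from 1 (most settings) to 5 of the 9 genes passed with 1 choice changed, and 8 and 9 with library totals or the length trend removed and without 24m replicate 1.

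With library totals the median of the 9 genes was 0.22 (all genes 0.214), and Mog (0.16), Mag (0.034) and Mobp (0.18) turned positive. Mbp was at 0.22 there (adjusted p = 0.0377) and Cnp at 0.40 (adjusted p = 0.00212). Without 24m replicate 1 as well, the median was 0.25, Mog 0.13 and Mobp 0.25. With DESeq2 on quantile-normalized counts the median was 0.16 (all genes -0.10), Mog was at 0.01, Mag at 0.16, Mobp at 0.13 and Ermn at -0.055, with Mbp at 0.44 (adjusted p = 1.12e-07) and Cnp at 0.54 (adjusted p = 1.26e-18). With the length trend removed the median was 0.26, Mbp -0.365 and Mog 0.36, and without 24m replicate 1 as well 0.20, -0.48 and 0.37. With the GC trend removed Ermn was at -0.089. Mbp was at -0.005 with RLE factors, -0.005 with DESeq2 and -0.008 with a 1 CPM filter. In the leave-one-out fits Mbp ranged from -0.068 to 0.075, Mobp from -0.082 to 0.026 and the median of the 9 genes from -0.067 to 0.075, the ends of that last range coming without 6m replicate 2 and 6m replicate 4.

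Over the other lists, 10 genes were called lower with TMM, 6 with library totals (also without 24m replicate 1) and 18 by adjusted p alone. Over all genes, 3058 were called lower, 1746 with library totals and 4999 by adjusted p alone, and 4237 higher against 5449 with library totals. Over the 33 called genes named from the other lists, Sox10 included, 626 of 658 values kept their side of the threshold, 32 lost it and 0 turned. With the canonical transcript length, 2 of 9 genes kept their rank at 6m and 4 at 24m. The replicate block, with the replicate numbers of the labels, gave 1 myelin protein gene higher and 0 lower, as without it, and 4112 and 3130 over all genes. Deviations of same-numbered libraries correlated at 0.271, 0.143, 0.0778 and -0.348, so the numbers do not pair the animals. Counting error is small for the 9 genes but adds to the error of the lowest genes named, such as Gldn (0.173 CPM at 6m) and Zfp488 (0.51 CPM).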

Other observations

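The mean profile of the 9 myelin protein genes over the 8 libraries, from -0.10 in 6m replicate 2 to 0.06 in 6m replicate 1 on the centred log2 scale, was compared with that of 8991 genes averaging 10 CPM or more. The 10 nearest genes by Euclidean distance were Trim26, Asrgl1, Tm9sf1, Lpcat3, Aldh9a1, Smpdl3a, Tsc2, Ttc39c, Uqcc1 and Cdc16, at distances of 0.11 to 0.14, where the median gene was at 0.86. None of them was in a gene list used here. Library totals gave the same 10, but could hardly do otherwise. That scaling shifts all genes of a library nearly alike, and the shift cancels in the distance. Of the members themselves, Mog (0.21) and Mbp (0.26) were nearest to the mean profile, and Mal (1.05) and Opalin (1.14) were farther from it than the median gene. Zfp57, the zinc finger gene that overlaps Mog on the other strand, was at 3.96 to 4.58 CPM at 6m and 1.73 to 2.73 CPM at 24m (log2 fold change -1.05, adjusted p = 0.000636), while Dnajc7 beside Cnp was at 131 to 150.6 and 121 to 134 CPM (-0.16, adjusted p = 0.105). Across the 9 genes the Spearman coefficient of log2 fold change with GC content was -0.217, and across all genes tested -0.228.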
